A study of Homo sapiens with 10 samples.

Results

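Nucleoporins are the proteins that build the nuclear pore complex, and the transcripts described here are those of 32 nucleoporin genes among the 27884 genes listed in the files. Members were chosen by name: every symbol made of NUP, a number and at most 1 further letter, plus AAAS, RANBP2, TPR, SEH1L, NDC1, POM121, POM121C, GLE1, RAE1, AHCTF1 and NUPL2. All 32 were expressed above the minimum for testing. RNA was sequenced from PANC-1, a long-established human cell line derived from a ductal adenocarcinoma of the pancreas, after lentiviral delivery of a short hairpin RNA against F2R, the gene of the thrombin receptor PAR1 (shPAR1, 5 libraries, numbered 1 to 5) or of a control hairpin (shCtrl, 5 libraries, numbered 6 to 10). Both groups had been selected with puromycin, and each is represented by 1 hairpin, so that effects of PAR1 loss and of the single hairpin cannot be told apart. The labels do not say whether libraries within a group are separate cultures; if they are not, the p-values reflect technical spread alone.

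The nuclear pore complex spans the double membrane of the nuclear envelope and is the gate for all protein and RNA traffic between nucleus and cytoplasm. Its scaffold consists of an outer ring, built from the Y-shaped complex on both faces of the pore, and an inner ring that lines the fusion of inner and outer membrane, and a few membrane proteins anchor it. Nucleoporins rich in phenylalanine-glycine repeats fill the channel and bind the transport receptors that carry cargo, filaments on the cytoplasmic side finish messenger RNA export, and a basket hangs into the nucleus. Dividing cells have to build new pores, and many scaffold nucleoporins also act at kinetochores and the spindle during mitosis.

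F2R itself was at 10.23 ± 0.053 in shPAR1 libraries and 11.79 ± 0.036 in shCtrl libraries (log2 scale, SD, n = 5 each), which is -1.56 as a log2 fold change (limma adjusted p = 7.69e-15, standard error 0.040). Between 15335264 and 22876248 reads were counted per shPAR1 library, against 18317098 to 25369056 per shCtrl library, and mitochondrially encoded genes held 7.37% to 9.08% of them in the shPAR1 group, against 5.71% to 7.07% in the shCtrl group. The epithelial markers KRT8, KRT18, KRT19, EPCAM and CDH1 were present in every library. Their limma log2 fold changes were -0.34 for KRT8, -0.35 for KRT18, -0.82 for KRT19, -0.78 for EPCAM and, in the other direction, 1.04 for CDH1. CD3E, CDH5, DCN, LUM, DES, CPA1, PNLIP, INS and GCG are not listed. No other marker of leukocytes, endothelium, fibroblasts, acinar or endocrine cells exceeded 37 counts in a library. Proliferation genes moved with the groups: the limma log2 fold change was -0.26 for MKI67, -0.50 for PCNA, -0.41 for MCM2 and -0.46 for TOP2A, with adjusted p from 9.15e-08 for PCNA to 0.000111 for MKI67. Their part in the nucleoporin values below was not tested. In a bulk culture fewer cells expressing a gene and less RNA per cell cannot be told apart.

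Most nucleoporin transcripts were lower in shPAR1 cells, by a modest amount, and the 3 genes called higher all encode membrane nucleoporins. In a limma fit over all 17518 genes tested, 19 of the 32 nucleoporins fell and 3 (NUP210, POM121 and POM121C) rose at an adjusted p under 0.05, while 10 did not pass. Over all genes tested, 21.9% were called lower and 19.0% higher. Among the 7004 tested genes whose mean log2 value lay within the range of 31 nucleoporins (all but the scarce NUP210L), 33.6% were called lower and 20.9% higher, so the count of lower nucleoporins is to be read against the larger of these shares. In 16 nucleoporins every shPAR1 library lay below every shCtrl library, and in 1, POM121C, every shPAR1 library lay above, against 15.9% and 13.3% of all genes tested and 25.1% and 15.6% of the 7004 genes of like level. The median log2 fold change was -0.16 over the 32 nucleoporins and -0.005 over all genes tested, and called genes fell by 9.92% (NUP155) to as much as NUP37, which fell by 21.8%, in normalised counts.

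By place in the pore, the scaffold had 10 of 13 genes lower and none higher (median log2 fold change -0.19), with 6 of 8 lower in the outer ring and 4 of 5 in the inner ring. The channel had 3 of 4 lower (median -0.25), the basket 2 of 3 (median -0.16) and the cytoplasmic side 3 of 6 (median -0.17). The membrane group stood in contrast with 1 of 6 lower, 3 higher and a median of 0.18. Among the 3 higher genes, POM121 and POM121C are near-identical copies whose reads may not have been told apart. Outside the membrane group 18 of 26 fell and none rose. With AAAS, also found on the cytoplasmic face, counted there instead of with the membrane genes, the cytoplasmic median was -0.067. No test was run between groups of genes, which are not replicates.

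**Figure D1:**
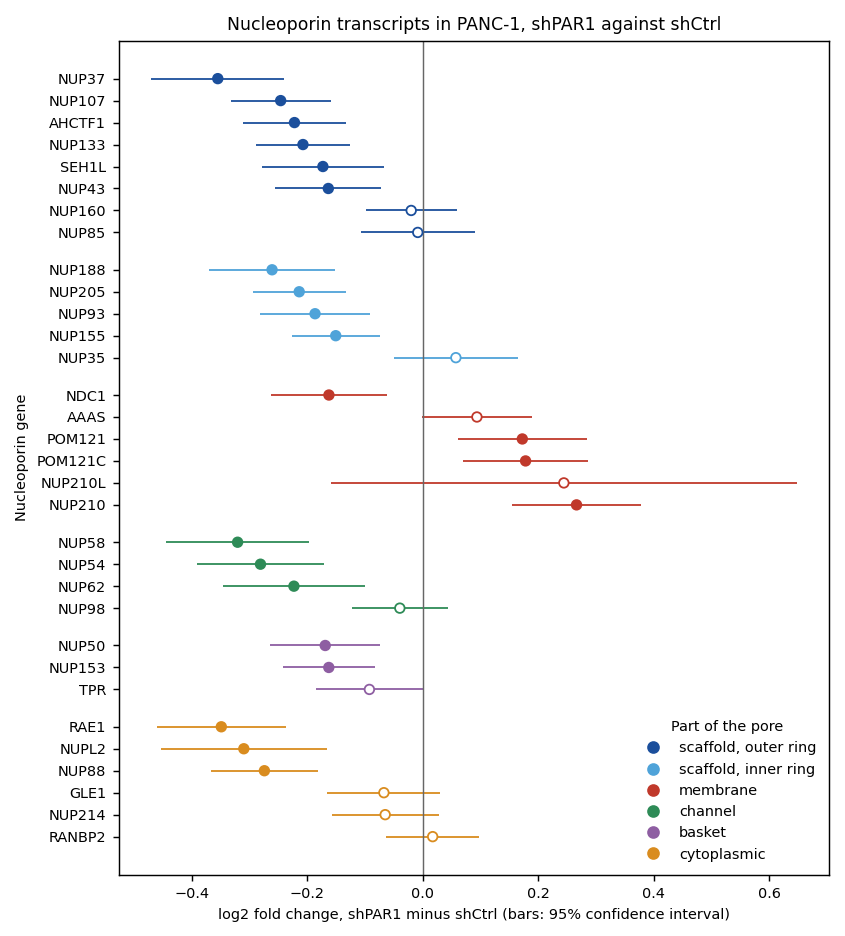
Log2 fold change (shPAR1 minus shCtrl, horizontal axis) of each of the 32 nucleoporins, grouped and coloured by part of the pore, with 95% confidence intervals from limma; filled points passed an adjusted p under 0.05. Filled points lie left of 0 in each group, and the 3 filled points right of 0 are NUP210, POM121 and POM121C.

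Promoter windows of 300 bases (250 before the start of the transcript to 50 after it, RefSeq, GRCh38.p14) were matched for 29 of the 32 genes and searched on both strands for 4 letter strings known as binding motifs: CACGTG (E-box, bound by Myc and related factors), TTTGGCGC and TTTCCCGC (E2F) and CCGGAAG (ETS factors), none of which contains another. The ETS string was in 12 of 29 nucleoporin promoters, against 12.2% of the promoters of all genes. That share covers 27305 genes, expressed here or not, so an excess particular to nucleoporins cannot be read from it. The copies POM121 and POM121C count as 2 of the 12. These 12 comprised 7 genes that fell, 2 that rose and 3 that did not pass. CACGTG was in the promoters of NUP188 and NUP50 only (8.78% of all genes), TTTGGCGC in that of NUP155 only (0.795%) and TTTCCCGC in none (1.98%). A match describes letters in the window and no bound site. The 6 windows printed below are those of both nucleoporins with an E-box, of a pair of channel partners that fell together and of the near-identical pair that rose, 5′ to 3′ on the strand of the gene, with every match in capitals.

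NUP188 (chr9:128947449-128947748, plus strand): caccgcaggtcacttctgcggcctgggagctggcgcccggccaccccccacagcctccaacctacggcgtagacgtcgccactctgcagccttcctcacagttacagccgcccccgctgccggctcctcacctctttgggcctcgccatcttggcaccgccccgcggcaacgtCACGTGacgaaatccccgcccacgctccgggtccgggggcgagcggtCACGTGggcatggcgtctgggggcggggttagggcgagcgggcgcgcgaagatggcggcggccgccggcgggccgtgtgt
NUP50 (chr22:45163675-45163974, plus strand): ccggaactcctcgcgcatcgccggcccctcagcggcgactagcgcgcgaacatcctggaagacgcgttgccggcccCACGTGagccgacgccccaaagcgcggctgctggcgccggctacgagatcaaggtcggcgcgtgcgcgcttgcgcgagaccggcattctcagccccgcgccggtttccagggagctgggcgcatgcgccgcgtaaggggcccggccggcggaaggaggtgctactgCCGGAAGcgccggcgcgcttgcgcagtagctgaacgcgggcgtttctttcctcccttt
NUP54 (chr4:76148348-76148647, minus strand): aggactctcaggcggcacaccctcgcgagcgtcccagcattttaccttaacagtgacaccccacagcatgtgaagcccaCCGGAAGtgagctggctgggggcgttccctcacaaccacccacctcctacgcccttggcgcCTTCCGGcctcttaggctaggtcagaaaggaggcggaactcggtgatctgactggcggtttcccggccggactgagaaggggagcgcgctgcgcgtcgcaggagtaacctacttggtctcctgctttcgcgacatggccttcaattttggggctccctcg
NUP58 (chr13:25301375-25301674, plus strand): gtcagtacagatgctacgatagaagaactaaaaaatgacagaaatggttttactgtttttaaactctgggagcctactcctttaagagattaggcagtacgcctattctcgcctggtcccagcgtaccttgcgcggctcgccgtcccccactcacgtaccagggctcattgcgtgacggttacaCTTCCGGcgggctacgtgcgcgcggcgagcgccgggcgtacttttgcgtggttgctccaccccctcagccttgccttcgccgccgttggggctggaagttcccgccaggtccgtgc
POM121 (chr7:72879107-72879406, plus strand): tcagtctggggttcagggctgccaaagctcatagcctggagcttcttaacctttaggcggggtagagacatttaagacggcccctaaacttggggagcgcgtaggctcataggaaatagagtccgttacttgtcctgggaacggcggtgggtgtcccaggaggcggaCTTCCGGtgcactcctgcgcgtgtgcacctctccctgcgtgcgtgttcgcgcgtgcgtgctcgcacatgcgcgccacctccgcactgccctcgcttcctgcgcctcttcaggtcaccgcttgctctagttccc
POM121C (chr7:75486250-75486549, minus strand): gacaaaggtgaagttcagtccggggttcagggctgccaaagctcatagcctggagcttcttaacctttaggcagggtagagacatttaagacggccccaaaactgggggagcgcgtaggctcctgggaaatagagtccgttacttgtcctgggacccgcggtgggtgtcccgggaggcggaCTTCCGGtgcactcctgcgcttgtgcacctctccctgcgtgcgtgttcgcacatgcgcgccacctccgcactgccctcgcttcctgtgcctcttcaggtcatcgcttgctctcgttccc

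The windows of NUP188 and NUP50 carry CACGTG 2 times and 1 time, and NUP50 also has an ETS string 8 bases before its start. NUP54 has the ETS string in both orientations and NUP58 in 1. The windows of POM121 and POM121C were 86.9% identical over 314 aligned columns and share the ETS string, at 83 and 69 bases before the start. The ETS string stood before genes that fell and before genes that rose, and its part in these changes was not tested.

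Outer ring genes fell together, with the exception of NUP160 and NUP85. NUP107 (chr12:68686951-68745809 of GRCh38, plus strand), in the stem of the Y complex, had log2 values of 11.26, 11.34, 11.37, 11.29 and 11.35 in the shPAR1 libraries and 11.59, 11.55, 11.48, 11.59 and 11.63 in the shCtrl libraries. All shPAR1 libraries lay below all shCtrl libraries, and the log2 fold change was -0.25 (standard error 0.041, limma adjusted p = 9.8e-05). NUP37 (chr12:102073103-102120120, minus strand), a propeller protein attached to the Y complex, had 9.41, 9.41, 9.58, 9.37 and 9.55 in shPAR1 and 9.91, 9.81, 9.74, 9.77 and 9.85 in shCtrl libraries. The groups did not overlap here either, and NUP37 showed the largest fall of all nucleoporins (log2 fold change -0.35, standard error 0.055, limma adjusted p = 4.37e-05).

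NUP133, which ends the stem of the Y, fell by 0.21 on the log2 scale (10.75 ± 0.043 in shPAR1, 10.96 ± 0.025 in shCtrl, SD, n = 5 each). NUP43 fell by 0.16 and SEH1L by 0.17, both small propeller proteins of the same complex. In SEH1L the groups overlapped, since shPAR1 library 5 (12.32) lay among the shCtrl libraries (12.27 to 12.38). AHCTF1 (ELYS), which brings the Y complex to chromatin when the nucleus re-forms after mitosis, fell by 0.22, but 48.4% of the 50-base windows of its transcript also occur in other genes, nearly all in the pseudogene AHCTF1P1, whose own log2 fold change was -0.17. NUP160 and NUP85, which lie in the arms of the Y, did not pass: NUP160 was at 11.46 ± 0.037 in shPAR1 and 11.48 ± 0.036 in shCtrl libraries (95% confidence interval of the log2 fold change -0.10 to 0.06), and NUP85 at 10.57 ± 0.074 in shPAR1 and 10.58 ± 0.062 in shCtrl libraries (-0.11 to 0.09).

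In the inner ring the large scaffold proteins fell. NUP188 (chr9:128947699-129007096, plus strand) had 11.43, 11.53, 11.51, 11.34 and 11.31 in the shPAR1 libraries and 11.64, 11.63, 11.68, 11.82 and 11.65 in the shCtrl libraries. Every shPAR1 library was lower than every shCtrl library, and NUP188 fell by 0.26 on the log2 scale (limma adjusted p = 0.000516, standard error 0.052). Its paralog NUP205 fell by 0.21 (12.43 ± 0.060 in shPAR1, 12.64 ± 0.023 in shCtrl), and NUP93, which ties either of them to the pore, fell by 0.19 (10.45 ± 0.073 in shPAR1, 10.63 ± 0.050 in shCtrl). NUP155, a scaffold protein needed for early pore assembly, fell by 0.15. In all 4 the groups did not overlap. NUP35, which binds membrane and links NUP155 to the inner ring, was the exception, at 9.31 ± 0.059 in shPAR1 and 9.25 ± 0.061 in shCtrl libraries (log2 fold change 0.06, 95% confidence interval -0.05 to 0.17).

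The membrane group held all nucleoporins that rose. NUP210 (gp210; chr3:13316235-13420322, minus strand), a transmembrane protein with a large domain in the lumen of the envelope, had 12.87, 12.98, 13.01, 12.96 and 12.71 in shPAR1 libraries and 12.60, 12.67, 12.66, 12.72 and 12.56 in shCtrl libraries. All but shPAR1 library 5 lay above every shCtrl library, and the log2 fold change was 0.27 (standard error 0.053, limma adjusted p = 0.000538). POM121C (chr7:75416786-75486299, minus strand), a transmembrane protein that anchors the pore, had 10.67, 10.89, 10.82, 10.66 and 10.69 in shPAR1 and 10.51, 10.60, 10.60, 10.64 and 10.50 in shCtrl libraries. These groups did not overlap (log2 fold change 0.18, standard error 0.052, limma adjusted p = 0.0101).

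POM121 (chr7:72879349-72951440, plus strand), the near-identical copy, had 10.40, 10.61, 10.58, 10.46 and 10.34 in shPAR1 libraries and 10.28, 10.27, 10.28, 10.35 and 10.35 in shCtrl libraries. Library 5 of shPAR1 again lay among the shCtrl values, and the log2 fold change was 0.17 (standard error 0.053, limma adjusted p = 0.0143). Of the 50-base windows of POM121 63.6% also occur in other genes, 48.7% in POM121C, so how reads were divided between the copies is uncertain. Summed to 1 value, the pair rose by 0.18 on the log2 scale (limma adjusted p = 0.00701, standard error 0.048).

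NDC1, a multipass membrane protein of the pore, went the other way and fell by 0.16 (12.17 ± 0.095 in shPAR1, 12.33 ± 0.063 in shCtrl), with 1 shPAR1 library within the range of the shCtrl libraries. AAAS (aladin), which NDC1 anchors at the pore, did not pass at 10.75 ± 0.082 in shPAR1 and 10.65 ± 0.039 in shCtrl libraries (log2 fold change 0.09, limma adjusted p = 0.112). NUP210L, the paralog of NUP210 known from testis, was scarce, at 4.80 ± 0.23 in shPAR1 and 4.56 ± 0.31 in shCtrl libraries, and its interval of -0.16 to 0.65 includes 0.

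The channel nucleoporins NUP54, NUP58 and NUP62 form a single complex of repeat proteins in the middle of the pore, and all 3 fell. NUP58 (chr13:25301524-25365390, plus strand) had 10.78, 10.56, 10.67, 10.57 and 10.85 in shPAR1 libraries and 11.12, 11.01, 10.87, 11.01 and 11.02 in shCtrl libraries. The highest shPAR1 library (5) and the lowest shCtrl library (8) came close without crossing, and the log2 fold change was -0.32 (standard error 0.059, limma adjusted p = 0.000242). NUP54 (chr4:76107562-76148485, minus strand) had 9.34, 9.36, 9.36, 9.39 and 9.54 in shPAR1 and 9.73, 9.69, 9.60, 9.64 and 9.74 in shCtrl libraries. The groups did not overlap, and NUP54 fell by 0.28 on the log2 scale (limma adjusted p = 0.000292, standard error 0.052).

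NUP62, the last of these partners, fell by 0.22 (10.26 ± 0.12 in shPAR1, 10.48 ± 0.090 in shCtrl, limma adjusted p = 0.0048), with shPAR1 library 3 (10.39) just above shCtrl library 6 (10.38). Other genes share 19.0% of its 50-base windows. NUP98 did not pass, at 13.48 ± 0.059 in shPAR1 and 13.52 ± 0.041 in shCtrl libraries (95% confidence interval -0.12 to 0.04). The NUP98 gene encodes a precursor that is cut into NUP98 of the channel and NUP96 of the Y complex, so its transcript serves both the channel and the scaffold.

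In the basket, NUP153 and NUP50 fell and TPR did not pass. NUP153 (chr6:17615035-17706925, minus strand), which docks transport receptors on the nuclear side, had 11.54, 11.55, 11.62, 11.53 and 11.54 in shPAR1 libraries and 11.67, 11.72, 11.76, 11.76 and 11.68 in shCtrl libraries. The groups did not overlap (log2 fold change -0.16, standard error 0.038, limma adjusted p = 0.00201). NUP50, its mobile partner that helps release import cargo, fell by 0.17 (10.35 ± 0.081 in shPAR1, 10.52 ± 0.024 in shCtrl, no overlap). Other genes share 16.0% of the 50-base windows of NUP50. TPR, the coiled-coil protein that forms the basket filaments, was at 12.56 ± 0.085 in shPAR1 and 12.65 ± 0.044 in shCtrl libraries (log2 fold change -0.09, limma adjusted p = 0.102), and passed when shPAR1 library 2 was left out (adjusted p = 0.0465).

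On the cytoplasmic side the genes separated into 3 that fell by 0.27 or more on the log2 scale and 3 that did not pass. RAE1 (chr20:57351223-57379211, plus strand), an mRNA export factor that binds NUP98 and also acts at the spindle, had 9.53, 9.45, 9.66, 9.46 and 9.51 in shPAR1 libraries and 9.79, 9.81, 9.91, 9.91 and 9.94 in shCtrl libraries. The groups were well apart, and the log2 fold change of -0.35 (standard error 0.053, limma adjusted p = 3.68e-05) came with the lowest adjusted p of all nucleoporins. None of the 50-base windows of RAE1 occurs in another gene.

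NUP88 (chr17:5359668-5420164, minus strand), which holds NUP214 at the pore, had 10.87, 10.90, 11.07, 10.98 and 10.99 in shPAR1 libraries and 11.27, 11.20, 11.19, 11.28 and 11.25 in shCtrl libraries, again without overlap (log2 fold change -0.27, standard error 0.044, limma adjusted p = 6.7e-05). RABEP1 on the opposite strand shares 39.0% of the 50-base windows of NUP88 and was itself higher (log2 fold change 0.44, standard error 0.040). The sources used here do not state whether counting kept the strands apart. NUPL2 (NUP42 in current annotation), a repeat protein that works with GLE1, fell by 0.31 (8.79 ± 0.15 in shPAR1, 9.10 ± 0.067 in shCtrl, no overlap), and an unnamed lncRNA on the opposite strand shares 34.2% of its windows. Genes on the opposite strand also share 11.6% of the windows of POM121, 10.1% of NUP153, 10.5% of NUP214, 6.55% of SEH1L, 5.56% of TPR and 3.26% of GLE1. Over all annotated exons, ART3 on the opposite strand overlaps 11.65% of NUP54, and ATF5 overlaps 9.38% of NUP62. ATF5 itself was lower (log2 fold change -0.44). The same doubt touches the values of all these nucleoporins.

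RANBP2, the large filament protein with SUMO ligase activity, did not pass, at 12.52 ± 0.053 in shPAR1 and 12.50 ± 0.037 in shCtrl libraries (95% confidence interval of the log2 fold change -0.06 to 0.10), with 27.0% of its windows shared, mainly with RGPD copies. NUP214, the filament base for export receptors, and GLE1, which activates the export helicase, each had a log2 fold change of -0.07 (limma adjusted p = 0.257 and 0.269).

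Seen library by library, the median deviation of the 26 nucleoporins outside the membrane group from the shCtrl mean lay between -0.22 and -0.15 in shPAR1 libraries and between -0.02 and 0.03 in shCtrl libraries. That of the 6 membrane genes lay between 0.05 and 0.26 in shPAR1 and between -0.03 and 0.03 in shCtrl libraries. In each group of genes the shPAR1 and shCtrl libraries were therefore separate in the median, whereas single genes overlapped as described.

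**Figure D2:**
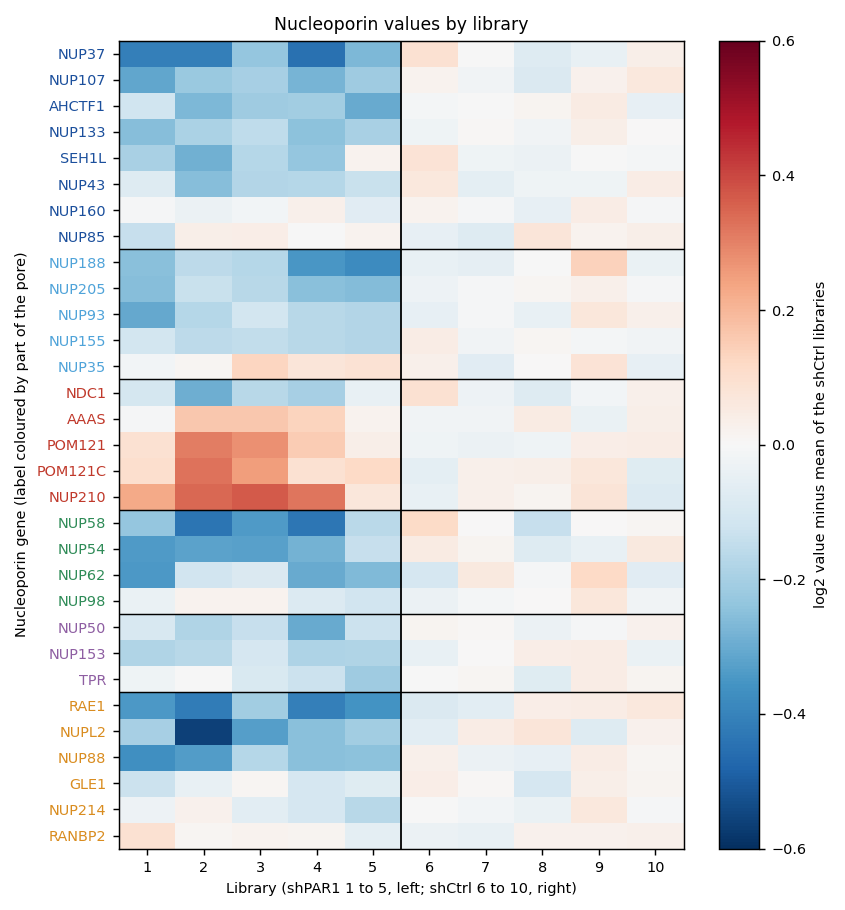
Log2 value minus the mean of the shCtrl libraries (colour) of 31 nucleoporins (rows, grouped by part of the pore, label coloured as the part) in 10 libraries (columns, shPAR1 left of the line, shCtrl right); the scarce NUP210L is left out. Blue fills most shPAR1 columns outside the membrane block, which is mostly red apart from NDC1, and library 5 is palest for NUP210, POM121, SEH1L and NDC1.

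Values of these genes also varied with GC content, the share of guanine and cytosine in the transcript. Across 10732 genes, the deviation of a library from its group mean correlated with GC content with Pearson's r from -0.571 in shPAR1 library 5 to 0.697 in shPAR1 library 2, a description across genes, which are not independent. The 5 nucleoporins of at least 55% GC (AAAS, NUP210, POM121, POM121C and NUP62) had a median deviation of 0.11 in library 2 and -0.07 in library 5. The 3 nucleoporins that rose have 56.9% to 58.4% GC. AAAS (57.4%), within that range, did not pass, and NUP62 (56.7%), just below it, fell. Of the 27 nucleoporins under 55% GC 18 fell and none rose. Among all genes tested, 26.2% of those of at least 55% GC were called higher and 15.7% lower, against 16.0% higher and 24.7% lower under 55%.

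After a correction of each library for GC content, chosen after seeing the data, all 32 nucleoporins kept their call, with 19 lower and the same 3 higher. The size of the falls shrank: the median over all nucleoporins was -0.12, that of the scaffold -0.15, of the channel -0.23, of the basket -0.13 and of the cytoplasmic side -0.13, and the membrane median was 0.15. NUP210 had a corrected log2 fold change of 0.22 (limma adjusted p = 4.93e-05), POM121C of 0.16 (0.00123), and POM121 of 0.13 (0.00789). RAE1 had -0.32 (9.35e-06) and NUP37 -0.29 (4.94e-05).

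Per length, SEH1L was the most abundant nucleoporin transcript, at 272 ± 23.9 TPM in shPAR1 and 306 ± 13.6 TPM in shCtrl libraries. TPM are transcripts per 1000000, recomputed from the counts and the length of 1 transcript per gene. That transcript has 1851 bases for SEH1L, whereas its annotated exons together span 10481 bases, so the first place depends on the length used. NUP98 followed with 191 ± 16.1 TPM in shPAR1 and 197 ± 15.2 TPM in shCtrl. NUP210 stood at place 3 in shPAR1 libraries (120 ± 12.0 TPM) and at place 6 in shCtrl libraries (99.6 ± 8.46 TPM), where it overlapped AAAS. NDC1 came next in shPAR1 libraries (114 ± 11.2 TPM), at a distance smaller than these SDs, so place 3 is not resolved. NUP93 was lowest apart from NUP210L, at 19.0 ± 0.66 TPM in shPAR1 and 21.7 ± 1.74 TPM in shCtrl libraries, and NUP210L lay at 0.52 TPM in shPAR1 and 0.44 TPM in shCtrl. In shCtrl libraries 26 of the 31 pairs of neighbours in the order of levels overlapped in their ranges, so that most of the middle order is not resolved. Summed over all 32 genes, nucleoporins held 1974 ± 123 TPM in shPAR1 and 2132 ± 121 TPM in shCtrl libraries, with overlapping ranges (1840 to 2163 TPM in shPAR1, 2033 to 2341 TPM in shCtrl).

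Genes that work with the pore were taken from 5 lists of transport factors. Of 61 listed genes 60 were tested (RANBP17 is not listed in the files), and 27 were lower and 5 higher, with a median log2 fold change of -0.11. Over all genes tested 21.9% were lower and 19.0% higher, and among genes at the level of nucleoporins 33.6% and 20.9%. The Ran cycle, which gives transport its direction, had 6 of 7 genes lower (median -0.26): the Ran-binding proteins RANBP3, an export cofactor, and RANBP1, which helps Ran release its receptors, fell by 0.56 and 0.37. Of the importins, receptors that carry proteins into the nucleus, 10 of 17 were lower and none higher (median -0.20), led by KPNA1 with 10.42 ± 0.072 in shPAR1 and 10.95 ± 0.088 in shCtrl libraries (log2 fold change -0.53, limma adjusted p = 1.21e-07) and IPO8 (-0.36).

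Exportins and receptors that work both ways had 2 of 8 lower and 1 higher, near the shares over all genes. CSE1L, which returns importin alpha to the cytoplasm, fell by 0.40, and IPO13, which carries cargo in both directions, rose by 0.42 (10.25 ± 0.064 in shPAR1, 9.83 ± 0.14 in shCtrl, limma adjusted p = 1.89e-05). Of the mRNA export genes 6 of 17 were lower and 1, DDX39B, was higher, with the lower share near that of genes at the level of nucleoporins. The lowest were PCID2 (-0.46) and THOC3 (-0.31). Among other pore-associated proteins 3 of 11 were lower and 3 higher. NUP62CL, a paralog of NUP62 at 2.23 CPM on average, fell by 1.96 (4.20 ± 0.38 in shPAR1, 6.16 ± 0.061 in shCtrl, standard error 0.17), the largest change in any list here. SENP1, a SUMO protease held at the pore, fell by 0.31. The 3 that rose, TOR1A (0.18), TOR1AIP1 (0.15) and TOR1AIP2 (0.11), encode torsin-1A and its cofactors of the nuclear envelope and endoplasmic reticulum and were named after their values were seen, as was DDX39B.

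**Figure D3:**
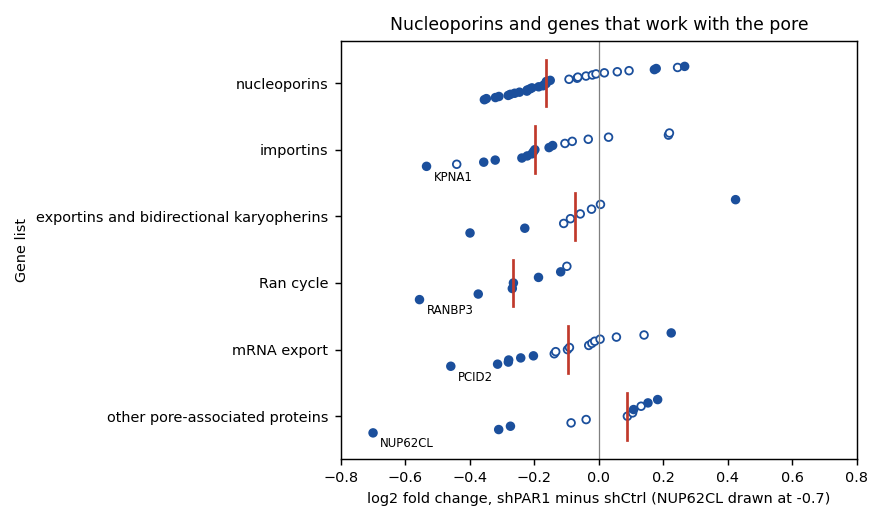
Log2 fold change, shPAR1 minus shCtrl (horizontal), of the 32 nucleoporins (top row) and of 60 genes in 5 lists of transport and pore-associated factors; filled points passed a limma adjusted p under 0.05, red lines are medians, and NUP62CL (-1.96) is drawn near the left edge. The medians lie left of 0 in each list except the other pore-associated proteins.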

How the data were processed

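RNA of PANC-1 cells was depleted of ribosomal RNA and sequenced as single reads of 50 bases. According to their methods and processing notes, the authors used FastQC 0.11.5, Trimmomatic 0.36, HISAT2 2.1.0 with GRCh38, HTSeq counts and DESeq2. Annotation release and strand setting: not given in the sources. Values were deposited on a log2 scale, for which the authors had divided counts by a size factor per library and added 1. Undoing this gave whole counts, of which TPM values and alternatives were made. All but the very highest counts were checked and lay within 0.000665 of a whole number. Symbols in the text follow the files, coordinates and GC content GENCODE 44.

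Members, lists, motifs and alternatives were chosen with earlier results of these data known. Genes reaching a normalized count of 10 in 5 or more libraries were tested on these log2 values with limma 3.58.1 (R 4.3.3, trended prior variance) and Benjamini-Hochberg adjustment over 17518 genes. Fold changes refer to log2 of the normalized count plus 1, which understates those of scarce genes. The fit was tested on simulated data, where it recovered 53.8% of changes of 0.25 on the log2 scale and 80.6% of changes of 0.5. A gene that did not pass may therefore still have changed. The simulation gave 159 calls, far fewer than these data, so its shares may not carry over. Every nucleoporin was to be named, and of each transport list the 2 called genes of largest change with at least 1 CPM. Libraries 1 to 10 carry no shared replicate numbers between groups. Alternatives were other normalizations, filters, a pseudocount of 5, voom on the recovered counts, leaving out each library, POM121 and POM121C summed, other assignments of AAAS and NUP98, and, added after seeing the data, a GC correction in 40 bins. Shared sequence was counted over all 50-base windows of 1 transcript per gene. Figures were drawn with matplotlib 3.10.9.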

Additional observations from a re-analysis of the deposited data

Results flagged for a closer look

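Single libraries stood apart from the other 4 of their group in 6 of the 64 sets of 5 values (32 nucleoporins in both groups), by a gap larger than Dixon's 95% critical value of 0.71 times the range. Chance flags about 1 in 20 such groups. NUP85 was low in shPAR1 library 1 at 10.45, against 10.58 to 10.63 in the others. NUP54 was high in shPAR1 library 5 at 9.54 (others 9.34 to 9.39), and NUP153 was high in shPAR1 library 3 at 11.62 (others 11.53 to 11.55). SEH1L was high in shCtrl library 6 at 12.38 (others 12.27 to 12.30), NUP188 was high in shCtrl library 9 at 11.82 (others 11.63 to 11.68), and GLE1 was low in shCtrl library 8 at 9.86 (others 9.97 to 10.00). None of the calls of these 6 genes changed when any 1 library was left out.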

How the results depend on the processing

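Of 577 values of single nucleoporins under alternatives, 566 kept direction and side of the threshold. Changes of sign occurred 7 times, in genes that were not called and stayed so: NUP160 had 0.013 with the GC correction. NUP85 had 0.0099 with the GC correction, 0.0055 with voom, 0.0005 with library totals and -0.028 to 0.024 with single libraries left out. RANBP2 had -0.002 to 0.036 with single libraries left out. The 4 values that newly passed were AAAS and TPR with voom, AAAS without shPAR1 replicate 1 and TPR without shPAR1 replicate 2. Nucleoporins called lower numbered 19 to 20 and those called higher 3 to 4 over all alternatives. With the GC correction, the median log2 fold change was -0.15 in the scaffold, -0.14 in its outer ring, -0.13 on the cytoplasmic side and -0.12 over all nucleoporins, and 8 transport genes were called higher, against 5 without it. The cause of the shifts with the GC correction was not tested. With AAAS counted on the cytoplasmic side, the median there was -0.067, which is the value of GLE1. The median of all genes tested moved between -0.02 and 0.02. No paired analysis was possible because the libraries of the 2 groups share no replicate number.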
